A study of Mus musculus with 3 samples.

Results

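Slc7a11 and 9 genes of the NRF2 antioxidant response were followed across the cell classes of injured mouse muscle. The members were chosen by name: Slc7a11, Nfe2l2, Keap1, Gclm, Gclc, Nqo1, Txnrd1, Srxn1, Gpx4 and Gsr, 10 of the 32285 features in the files, and all 10 were found. Slc7a11 was picked because its treatment ratio in macrophages was among the lowest, so that ratio, and the age ratio that shares a library with it, are given as descriptions. Tibialis anterior muscle of C57/BL6J mice was injured with barium chloride and its cells were taken 4 days later, in all 3 groups. The groups were young PBS (mice of 3 to 4 months), old PBS (24 to 26 months) and old rMETRNL (24 to 26 months, given recombinant meteorin-like, a secreted protein, into the muscle), with PBS as the vehicle. Each group was 1 library of cells pooled from 3 samples, so there were no replicates and no p-value is given. Every interval is a 95% interval for counting error only.

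The age contrast is the level in old PBS over that in young PBS, and the treatment contrast divides old rMETRNL by old PBS. Both use the old PBS library, so a gene that stands high in that library gives a high age ratio and a low treatment ratio at once. A level is the sum of a gene's UMIs (counted mRNA molecules) over the cells of a class, scaled to the class total as counts per 1e6 UMIs (CPM), and levels of different genes are not ranked against each other. The young PBS, old PBS and old rMETRNL libraries held 218059089, 179295668 and 228966697 UMIs over 12168, 12568 and 14012 barcodes. From a class sum alone, fewer transcripts per cell and fewer expressing cells cannot be told apart. Pairs of libraries shared 58 to 80 cell barcodes, at most 0.658% of a library.

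NRF2, encoded by Nfe2l2, is a transcription factor that is kept scarce by KEAP1, which brings it to a ubiquitin ligase built on CUL3. Oxidants and electrophiles modify KEAP1, NRF2 then accumulates, pairs with small MAF proteins and binds antioxidant response elements at genes of glutathione and thioredoxin metabolism. This control acts largely on the protein, which was not measured here. Slc7a11 encodes xCT, the light chain of the cystine/glutamate exchanger, which brings in cystine for glutathione synthesis. It is a target of NRF2 and, through amino acid response elements, of ATF4.

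In macrophages Slc7a11, Srxn1, Txnrd1 and Nfe2l2 were highest in old PBS, and Gclm was not. Gclc and Gsr were also highest there, but no upstream sequence was at hand for them. No link between a motif and a level was tested. The sequences upstream of 5 members, Slc7a11, Srxn1, Txnrd1, Nfe2l2 and Gclm, are shown. They are RefSeq promoter windows of GRCm38.p6, the 250 bases before the annotated start, read 5′ to 3′ on the strand of the gene. Of the 10 members, 8 matched the table. The motifs were searched on both strands: the core of the antioxidant response element, TGACNNNGC, found in 10.2% of the 32851 windows, the CEBP-ATF response element, TGATGNAA, found in 3.45%, and the AP-1 site, TGANTCA, found in 6.75%. Capitals mark the matches, and a match is a run of letters, not a shown binding site.

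The Slc7a11 window, chr3:50443614-50443863 on the minus strand, held 2 CEBP-ATF matches, beginning 66 and 47 bases before the start and lying on opposite strands.
Slc7a11: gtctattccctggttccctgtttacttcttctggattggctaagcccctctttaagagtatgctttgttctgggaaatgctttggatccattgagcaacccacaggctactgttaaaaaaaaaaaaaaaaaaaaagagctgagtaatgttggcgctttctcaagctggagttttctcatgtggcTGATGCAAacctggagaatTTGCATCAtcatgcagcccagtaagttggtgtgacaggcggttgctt
The Srxn1 window, chr2:152105274-152105523 on the plus strand, held 2 AP-1 matches, 102 and 45 bases before the start.
Srxn1: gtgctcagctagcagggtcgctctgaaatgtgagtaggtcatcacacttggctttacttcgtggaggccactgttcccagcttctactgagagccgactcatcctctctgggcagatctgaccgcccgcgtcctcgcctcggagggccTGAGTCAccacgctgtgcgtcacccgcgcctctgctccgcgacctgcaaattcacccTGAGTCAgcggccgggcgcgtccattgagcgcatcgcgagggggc
Of the 3 Txnrd1 windows, the one at chr10:82858956-82859205 on the plus strand held the antioxidant response element core, 92 bases before the start.
Txnrd1: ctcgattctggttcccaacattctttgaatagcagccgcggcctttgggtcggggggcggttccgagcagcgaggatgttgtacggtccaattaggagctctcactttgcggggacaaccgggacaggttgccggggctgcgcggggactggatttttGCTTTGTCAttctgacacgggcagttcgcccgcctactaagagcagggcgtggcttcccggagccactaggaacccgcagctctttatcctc
The Nfe2l2 window, chr2:75704664-75704913 on the minus strand, held the same core, 240 bases before the start.
Nfe2l2: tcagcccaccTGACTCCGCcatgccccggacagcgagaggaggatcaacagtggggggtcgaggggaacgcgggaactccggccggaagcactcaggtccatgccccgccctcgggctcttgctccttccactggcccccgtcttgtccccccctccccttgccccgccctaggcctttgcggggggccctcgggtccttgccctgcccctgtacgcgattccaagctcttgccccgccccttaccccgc
The Gclm window, chr3:122245307-122245556 on the plus strand, held the core 134 bases before the start.
Gclm: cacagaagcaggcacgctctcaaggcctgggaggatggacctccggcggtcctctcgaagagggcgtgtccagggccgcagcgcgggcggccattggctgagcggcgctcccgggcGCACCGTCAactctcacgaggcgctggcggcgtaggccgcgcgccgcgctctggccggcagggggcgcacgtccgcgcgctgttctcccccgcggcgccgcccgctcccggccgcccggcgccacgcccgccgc
The core was found in windows of 3 members, Nfe2l2, Gclm and Txnrd1. Txnrd1 had 3 windows and Gpx4 had 4, so this count of members is not to be set beside the share of windows. It was not among the letters of these windows of Slc7a11, Keap1, Nqo1, Srxn1 and Gpx4. Gclc and Gsr were not in the table.

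Cells were grouped by marker genes into 10 classes, with the members and the pathway lists left out of the genes that shaped the clusters. The class with the most cells was that of macrophage/monocyte-like cells (6185, 6097 and 6691 in the young PBS, old PBS and old rMETRNL libraries), and all 12 of their markers were at least 2-fold higher than in the other cells. Fibro/adipogenic progenitor-like cells (FAPs), the stromal cells that build matrix after injury, had 1713, 1420 and 1776 cells, and all 12 of their markers were likewise higher. The median macrophage held 14210, 14770 and 14581 UMIs in the 3 libraries. Myocyte-like droplets were shallow, with a median of 2107 UMIs in old PBS, and only 8 of their 12 markers were higher. Endothelial cells were shallowest in old PBS, with medians of 11389, 3923 and 7223 UMIs in young PBS, old PBS and old rMETRNL.

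Slc7a11 mRNA was found mostly in phagocytes, and there it was highest in old PBS. In macrophages the old PBS library gave 76.0 CPM (74.3 to 77.7), against 27.5 CPM (26.4 to 28.5) for young PBS and 28.8 CPM (27.8 to 29.8) after rMETRNL. Young PBS and old rMETRNL were near each other, and old PBS stood apart from both. The ratios were 2.77 (2.65 to 2.89) for age and 0.379 (0.364 to 0.395) for treatment. Of the 12153 genes with at least 200 UMIs in macrophages, 44 had a higher age ratio and 7 a lower treatment ratio. The neighbours in the order of treatment ratios were Car3 at 0.350 and Pvalb at 0.371, both genes of muscle fibres, on the lower side, and Gm35339 at 0.395 and Slc15a2 at 0.397 on the upper side. Muscle RNA moved the same way in macrophages: the 12 myocyte markers, all detected, summed to 91.3, 186.6 and 102.2 CPM in young PBS, old PBS and old rMETRNL. In the myocyte-like droplets Slc7a11 was at 5.79 CPM (2.65 to 11.0) in old PBS and at 0 UMIs in the other libraries. The part of muscle RNA in the Slc7a11 ratios was not tested.

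Dendritic-like cells, too, had their highest level in old PBS, and their lowest after rMETRNL. They held Slc7a11 at 45.5 CPM (39.3 to 52.4) in the old PBS library, against 18.0 CPM (14.9 to 21.4) for young PBS and 12.0 CPM (9.59 to 14.8) after rMETRNL, which made ratios of 2.53 (2.01 to 3.20) for age and 0.263 (0.202 to 0.341) for treatment. In FAPs the levels were far lower, at 2.04, 3.03 and 2.59 CPM, with ratios of 1.49 (1.11 to 1.99) for age and 0.854 (0.648 to 1.13) for treatment, whose interval held 1. That FAP treatment ratio ran from 0.615 with the mean of per-cell CPM to 1.03 with cells gated one by one, so no direction is read from it.

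In the old PBS library the order of the classes began with macrophages, dendritic cells and endothelial cells, whose intervals did not overlap. Endothelial cells had 7.89 CPM (5.90 to 10.4), tenocyte-like cells 4.72 CPM (2.26 to 8.68) and FAPs 3.03 CPM (2.46 to 3.69), and each of these overlapped its neighbour in the order, as did the myocyte-like droplets. Muscle stem cells and myoblasts, at 0.768 CPM (0.249 to 1.79), lay below FAPs and overlapped T and NK cells, at 0.677 CPM (0.0171 to 3.77). Schwann-like cells had 0 UMIs in old PBS. Pericytes and smooth muscle had 0 UMIs in all 3 libraries, with an upper bound of at most 7.20 CPM.

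**Figure D1:**
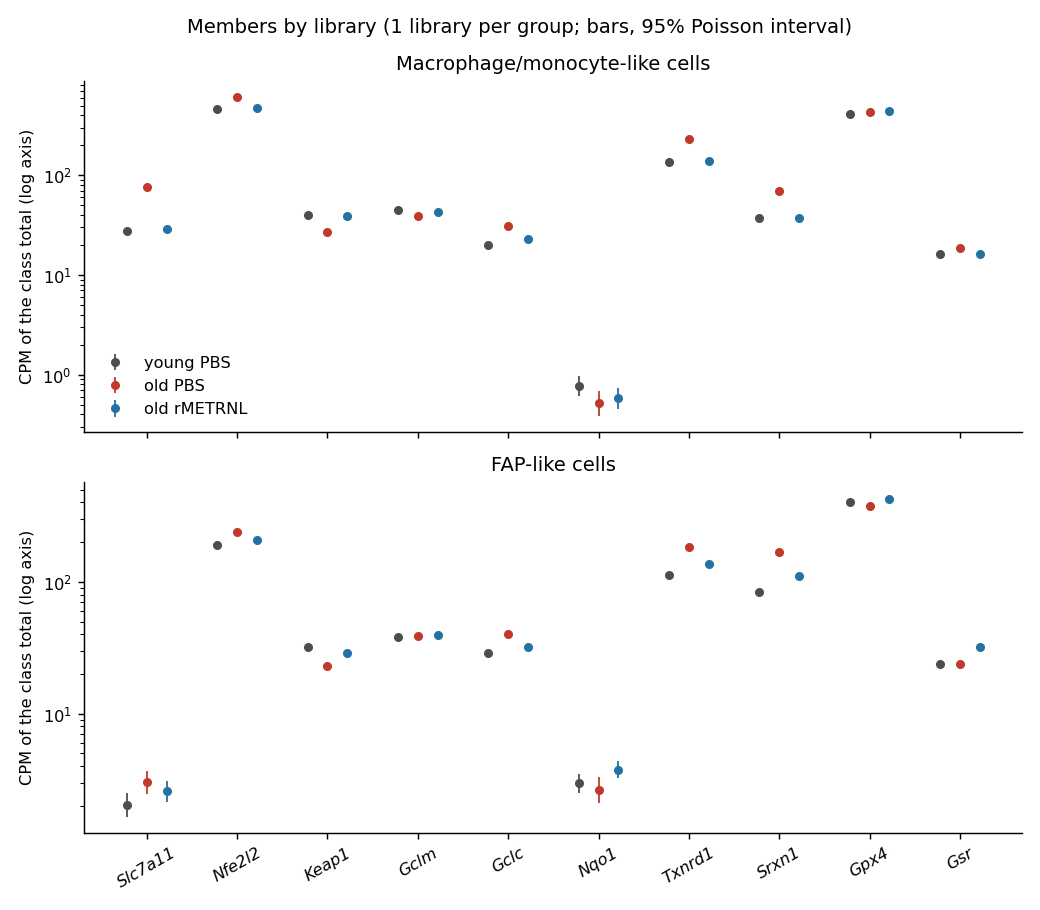
Level of each member in macrophage/monocyte-like and FAP-like cells, in CPM of the class total on a log axis, with 1 point per library and 95% Poisson intervals. In macrophages the old PBS point is above both others for Slc7a11 (76.0 CPM against 27.5 and 28.8), Nfe2l2, Gclc, Txnrd1, Srxn1 and Gsr and below both for Keap1, Gclm and Nqo1.

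The share of macrophages with Slc7a11 followed its level. With every cell thinned to 2000 UMIs, at least 1 Slc7a11 UMI was found in 4.11% (exact binomial interval 3.62% to 4.64%) of 6088 young PBS cells, 10.2% (9.41% to 11.0%) of 5890 old PBS cells and 4.70% (4.20% to 5.25%) of 6527 old rMETRNL cells. In FAPs, which had medians of 22015 to 26173 UMIs, the thinned shares were 0.234%, 0.357% and 0.456%. T and NK cells had a thinned share of 0% in each library, with upper bounds of 1.79%, 2.07% and 3.24%. Thinning left out 97, 207 and 164 shallower macrophages, and without it the macrophage shares were 15.1%, 32.2% and 15.6%. Unthinned, cells with 10 or more Slc7a11 UMIs made up 0.808%, 2.92% and 0.882% of macrophages. Old PBS thus had more cells with any transcript and more cells with many.

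Nfe2l2, the gene for NRF2, had a smaller difference with the same order of libraries. In macrophages it stood at 466, 605 and 473 CPM in young PBS, old PBS and old rMETRNL. Old PBS was highest, with ratios of 1.30 (1.28 to 1.31) for age and 0.782 (0.773 to 0.791) for treatment. FAPs had 189, 238 and 209 CPM, with ratios of 1.26 (1.22 to 1.30) for age and 0.877 (0.851 to 0.904) for treatment. Muscle stem cells and myoblasts had 126, 209.7 and 161 CPM, with ratios of 1.66 (1.55 to 1.78) for age and 0.766 (0.716 to 0.819) for treatment. Over the 10 classes the age interval lay above 1 in 8 and the treatment interval below 1 in 8, and T and NK cells and pericytes held 1 in both.

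Keap1, which encodes the repressor of NRF2, was lowest in old PBS in macrophages and FAPs. Its macrophage level was 40.4, 27.2 and 38.8 CPM in young PBS, old PBS and old rMETRNL, with ratios of 0.673 (0.641 to 0.707) for age and 1.43 (1.36 to 1.5004) for treatment. In FAPs it was 31.9, 23.1 and 29.0 CPM, with ratios of 0.723 (0.662 to 0.790) for age and 1.254 (1.15 to 1.37) for treatment. Dendritic cells had an age ratio of 0.764 (0.586 to 0.989). In endothelial cells, at 0.935 (0.794 to 1.10), and in muscle stem cells and myoblasts, at 0.961 (0.778 to 1.18), the age intervals held 1.

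Txnrd1 encodes cytosolic thioredoxin reductase, which keeps thioredoxin reduced. Its macrophage level was 135, 230.0 and 141 CPM in young PBS, old PBS and old rMETRNL, with ratios of 1.71 (1.67 to 1.74) for age and 0.611 (0.599 to 0.624) for treatment. FAPs had 113, 184 and 136 CPM, with ratios of 1.62 (1.56 to 1.68) for age and 0.740 (0.714 to 0.767) for treatment. Old PBS was the highest library in both, as it was in dendritic cells, with ratios of 2.05 (1.90 to 2.22) and 0.588 (0.546 to 0.633), and endothelial cells, with 1.66 (1.55 to 1.77) and 0.752 (0.708 to 0.798). In muscle stem cells and myoblasts both ratios were above 1, at 1.20 (1.11 to 1.29) and 1.08 (1.005 to 1.17).

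Srxn1 encodes sulfiredoxin, which restores over-oxidized peroxiredoxins. It was at 37.4, 69.2 and 37.6 CPM in macrophages of young PBS, old PBS and old rMETRNL, with ratios of 1.85 (1.78 to 1.93) for age and 0.542 (0.522 to 0.564) for treatment. FAPs had 83.7, 168 and 111 CPM, with ratios of 2.003 (1.92 to 2.09) for age and 0.660 (0.635 to 0.686) for treatment. Muscle stem cells and myoblasts had 20.4, 61.1 and 37.4 CPM, with ratios of 2.99 (2.58 to 3.47) for age and 0.611 (0.536 to 0.697) for treatment. Old PBS was highest in each of these classes, including the FAPs and muscle cells in which Slc7a11 was scarce. Over the 10 classes the age interval lay above 1 in 7, below 1 in 1 and held 1 in 2. Those that held 1 were tenocytes, at 1.08 (0.898 to 1.29), and the myocyte-like droplets. The class below 1 was the Schwann-like one, of 25, 67 and 51 cells, at 0.435 (0.212 to 0.864).

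The genes of glutathione synthesis and recycling did not share 1 direction. Gclc, the catalytic subunit of glutamate-cysteine ligase, had 19.9, 31.3 and 22.7 CPM in macrophages, with ratios of 1.57 (1.49 to 1.66) for age and 0.727 (0.690 to 0.767) for treatment, and 28.7, 40.5 and 31.8 CPM in FAPs, with 1.41 (1.31 to 1.52) and 0.786 (0.729 to 0.848). Gclm, the modifier subunit of the same enzyme, had 45.0, 38.8 and 42.7 CPM in macrophages, with ratios of 0.863 (0.826 to 0.901) and 1.10 (1.06 to 1.15). The subunits lay on opposite sides of 1 in macrophages. In FAPs Gclm gave 1.02 (0.947 to 1.10) and 1.01 (0.940 to 1.09), and both intervals held 1.

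Gsr, glutathione reductase, had 16.4, 18.8 and 16.4 CPM in macrophages, with neither ratio past 0.8 or its inverse. In FAPs it had 23.8, 23.6 and 31.8 CPM, with a treatment ratio of 1.35 (1.23 to 1.47). Gpx4, the peroxidase that reduces lipid hydroperoxides in membranes, had 413, 436 and 438 CPM in macrophages and 403, 375 and 426 CPM in FAPs, with its 4 ratios between 0.931 and 1.14. Nqo1, a quinone reductase often used as a readout of NRF2, was nearly undetected in macrophages, at 0.773, 0.519 and 0.583 CPM. In FAPs it had 2.98, 2.65 and 3.76 CPM, with ratios of 0.890 (0.672 to 1.17) for age and 1.42 (1.09 to 1.86) for treatment.

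**Figure D2:**
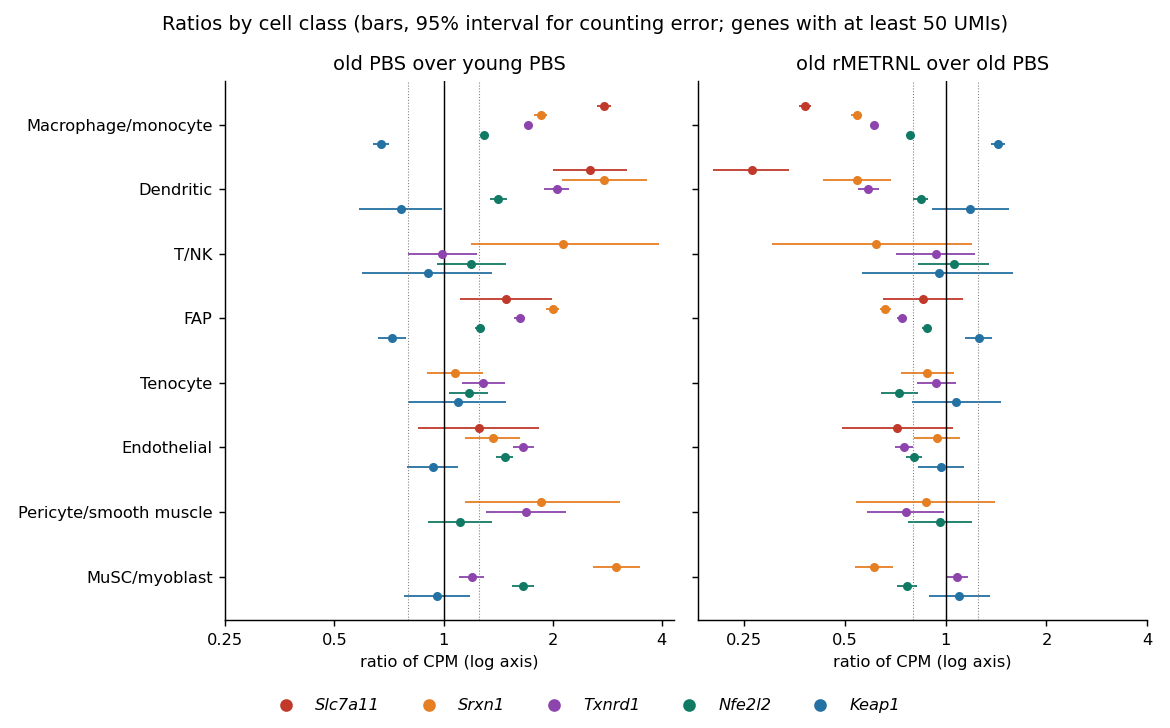
Ratio of CPM, on a log axis, of members in the cell classes with at least 50 cells in each library, for the age contrast and the treatment contrast, with the 95% interval for counting error and dotted lines at 0.8 and its inverse. In macrophages and dendritic cells Slc7a11 lies at 2.77 and 2.53 for age and at 0.379 and 0.263 for treatment, and Keap1 lies on the other side of 1 in macrophages and FAPs.

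The members were then set beside all genes. A gene was counted as lower when its ratio, with 0.5 added to each count, was at most 0.8, and as higher when it was at least the inverse of that, among genes with at least 200 UMIs in the class. In macrophages 9 members passed that minimum, all but Nqo1. In the age contrast 5 of them were higher, beside 12.8% of all genes, and 1 was lower, beside 13.5%. In the treatment contrast 5 were lower, beside 8.01% of genes, and 1 was higher, beside 13.7%. The 5 were Slc7a11, Srxn1, Txnrd1, Gclc and Nfe2l2 in both contrasts, and the 1 was Keap1. The median log2 ratio of the 9 was 0.38 for age, beside -0.0066 over all genes, and -0.35 for treatment, beside 0.049. These ratios share the contrast by which Slc7a11 was picked, so nothing is read from the counts.

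All 10 members passed the minimum in FAPs. In the age contrast 5 were higher (Slc7a11, Srxn1, Txnrd1, Gclc and Nfe2l2), beside 13.6% of 12038 genes, and 1 (Keap1) was lower, beside 16.3%. In the treatment contrast 3 were lower (Srxn1, Txnrd1 and Gclc), beside 9.85% of genes, and 3 were higher (Gsr, Keap1 and Nqo1), beside 11.3%. The median log2 ratio was 0.18 for age, beside -0.040 over all genes, and -0.087 for treatment, beside 0.021. With cells called as doublets kept, the 3 higher members of the treatment contrast became 1.

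Macrophages were split into 11 sub-clusters, also shaped without the members. Slc7a11 ranged widely among them. In old PBS it stood at 149.8 CPM (141 to 158) in the sub-cluster of Ly6c2/Plac8 type, genes of recruited monocytes, and at 122 CPM (117.2 to 126) in the one led by Dnase1l3 and Vcam1. It stood at 9.17 CPM (6.18 to 13.1) in the one led by Gm26917 and Hbb-bs and at 5.04 CPM (2.88 to 8.19) in the one led by Hes1. Against the other macrophages, the 10 leading genes of the Gm26917 sub-cluster hold the erythroid marker Hbb-bs and the FAP markers Dcn and Col1a1. They also hold the tenocyte marker Thbs4 and no macrophage marker, although all 12 macrophage markers were detected in the sub-cluster. Of the 11 sub-clusters, only the Ly6c2/Plac8 type had a macrophage marker, Ly6c2, among its leading genes. Of the 2 sub-clusters of Cd163/Lyve1/Cbr2 type, genes of resident macrophages, the one led by Lyve1 and Ednrb had 47.0 CPM (41.7 to 52.8) and the one led by Chp2 had 0 UMIs in old PBS. Those of Spp1/Gpnmb/Atp6v0d2 type had 83.2 CPM (78.5 to 88.0) where led by Fbxo32 and 34.1 CPM (31.2 to 37.3) where led by Rnf128, and cycling macrophages had 25.6 CPM (22.4 to 29.1).

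Within sub-clusters old PBS was mostly the highest library, as in the class. The Slc7a11 age interval lay above 1 in 8 of 11 sub-clusters and held 1 in 3, and the treatment interval lay below 1 in 9 of the 10 that gave a ratio, from 0.309 to 0.793. In the Ly6c2/Plac8 type the levels were 63.1, 149.8 and 68.2 CPM in young PBS, old PBS and old rMETRNL, with ratios of 2.37 (2.13 to 2.65) and 0.456 (0.412 to 0.504). In the sub-cluster led by Dnase1l3 they were 45.6, 122 and 66.6 CPM, with ratios of 2.67 (2.46 to 2.90) for age and 0.547 (0.505 to 0.591) for treatment. The sub-cluster led by F10, Slpi and Mmp12 had 62.2, 89.3 and 66.4 CPM, with ratios of 1.44 (1.27 to 1.62) for age and 0.744 (0.672 to 0.823) for treatment. Its leading genes, ranked against the other macrophages, include Il7r, a T and NK marker. They hold no macrophage marker, which was so in every sub-cluster but the Ly6c2/Plac8 type. Vcam1, of the muscle stem cell list, was likewise among the leading genes of the sub-cluster led by Dnase1l3. Without the F10 sub-cluster the class ratios were 2.95 and 0.344.

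Keap1 kept its direction within sub-clusters, with age intervals below 1 in 8 of 11 and treatment intervals above 1 in 10. Txnrd1 had age intervals above 1 in 10, and treatment intervals below 1 in 9 and above 1 in 1. Srxn1 had 8 above 1 and 1 below for age, and 8 below 1 and none above for treatment. Both exceptions were in the sub-cluster led by Chp2, where the Txnrd1 treatment ratio was 1.67 (1.05 to 2.80) and the Srxn1 age ratio 0.265 (0.123 to 0.505). Nfe2l2 differed less: its age ratios ran from 0.926 to 1.41, and its treatment ratios from 0.817 to 1.0. Gclm was split, with 2 sub-clusters above 1 and 5 below for age. In the 10 FAP sub-clusters Txnrd1 had age intervals above 1 in 9 and treatment intervals below 1 in 7, and the others held 1. Srxn1 was less even there, with 5 above 1 and 1 below for age, and 5 below and 1 above for treatment. Keap1 had 2 below 1 and 1 above for age and 2 above and 1 below for treatment. For Slc7a11 every interval held 1, in the 9 FAP sub-clusters with an age ratio and the 8 with a treatment ratio.

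**Figure D3:**
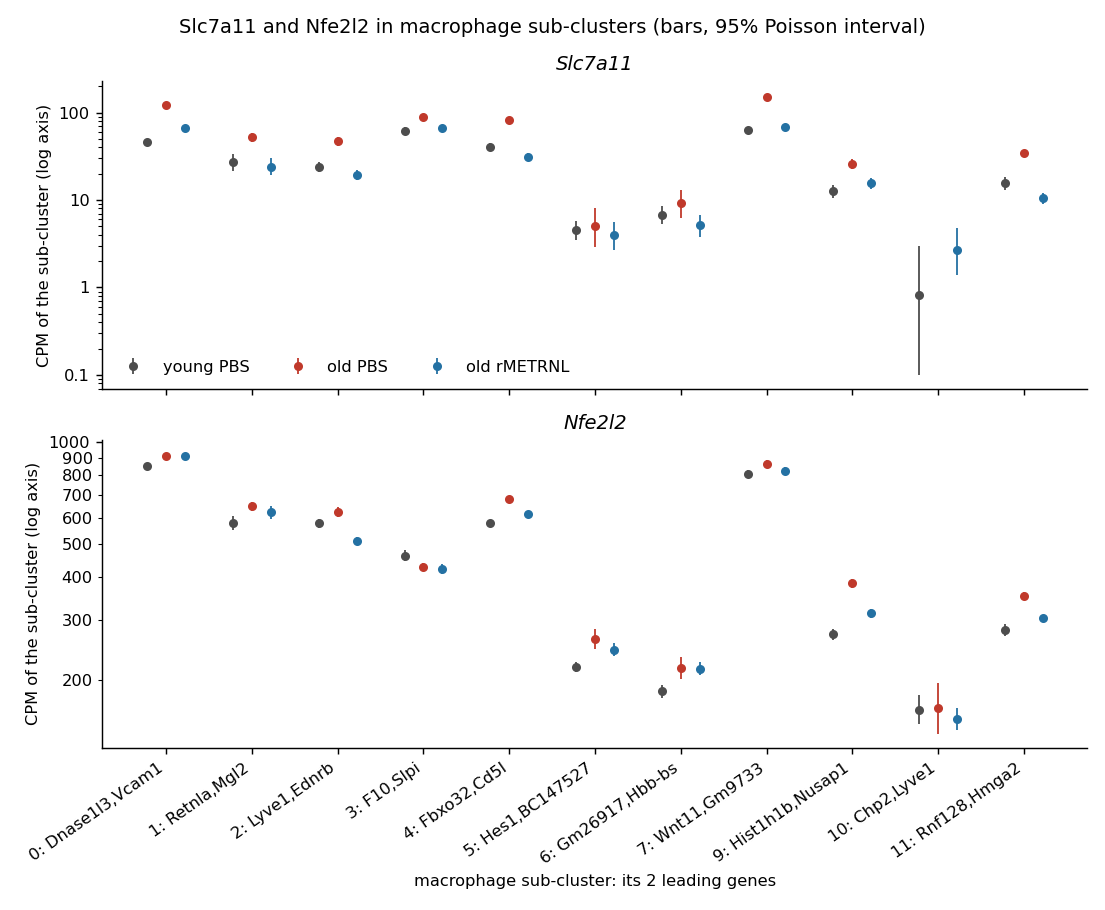
Level of Slc7a11 and Nfe2l2 in the 11 macrophage sub-clusters, in CPM of the sub-cluster on a log axis, with 1 point per library and 95% Poisson intervals. Slc7a11 in old PBS is above both other libraries in most sub-clusters, up to 149.8 CPM in the Ly6c2/Plac8 type, while the 3 libraries lie closer together for Nfe2l2. Old PBS has no Slc7a11 point in the sub-cluster led by Chp2, where it had 0 UMIs.

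The mix of sub-clusters differed between libraries as well. The sub-cluster led by Dnase1l3, high in Slc7a11, held 16.6%, 24.05% and 12.4% of macrophages across young PBS, old PBS and old rMETRNL, and gave 26.1%, 36.3% and 25.7% of the Slc7a11 UMIs of the class. The one led by Hes1, low in Slc7a11, held 19.1%, 5.48% and 10.4% of macrophages. A sub-cluster enters the class level by its share of the UMIs, which was 15.7%, 22.7% and 11.1% for the first and 14.2%, 3.17% and 6.96% for the second. With the UMI shares of the sub-clusters held at those of old PBS, the Slc7a11 age ratio was 2.14 in place of 2.77 and the treatment ratio 0.511 in place of 0.379. With the levels held and the shares left to differ, the ratios were 1.30 and 0.767.

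Held shares moved the other members by different amounts. Nfe2l2 went from 1.30 to 1.11 for age and from 0.782 to 0.940 for treatment. Txnrd1 went from 1.71 to 1.40 and from 0.611 to 0.707, and Srxn1 from 1.85 to 1.54 and from 0.542 to 0.605. Keap1 went from 0.673 to 0.770 and from 1.43 to 1.28. Gclc went from 1.57 to 1.38 and from 0.727 to 0.733. Each of these stayed on its side of 1, but with held shares Nfe2l2 no longer passed 0.8 or its inverse in either contrast.

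**Figure D4:**
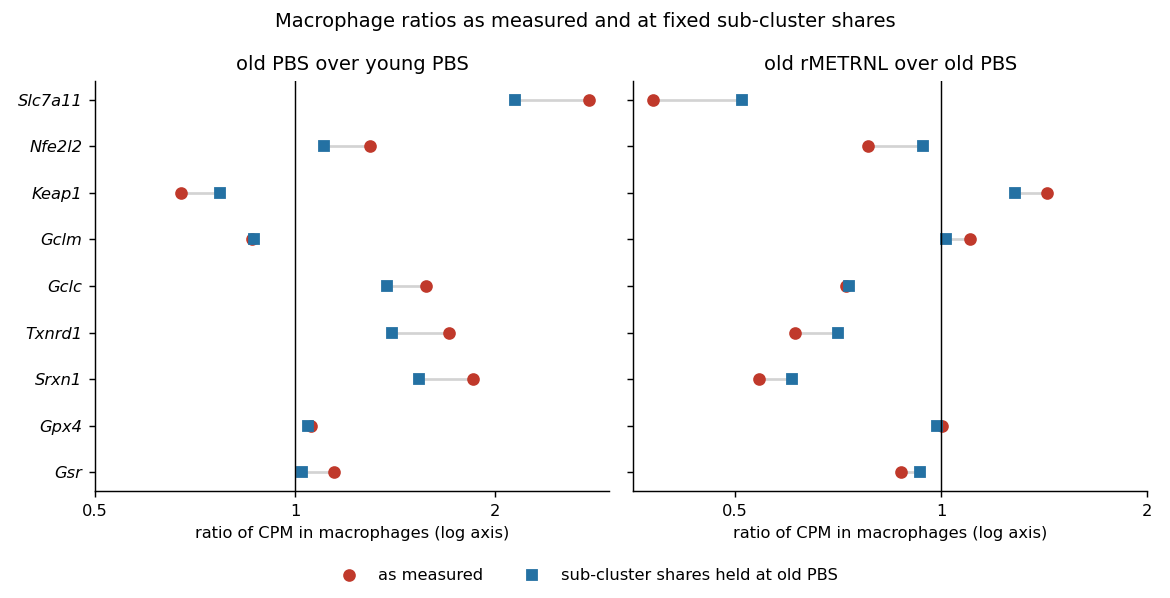
Macrophage ratios of the members on a log axis, as measured and with sub-cluster UMI shares held at those of old PBS, for the age contrast and the treatment contrast. Slc7a11 moves from 2.77 to 2.14 and from 0.379 to 0.511, while Nfe2l2 moves from 1.30 to 1.11 and from 0.782 to 0.940.

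Of 13 regulators of the KEAP1-NRF2 system tested in macrophages, 8 were higher by this rule and 1 lower in the age contrast (median log2 ratio 0.37), and 1 was higher and 7 lower in the treatment contrast (-0.35). Over all genes tested the shares were 12.8% higher and 13.5% lower for age, and 13.7% higher and 8.01% lower for treatment, with medians of -0.0066 and 0.049. The list includes the members Nfe2l2 and Keap1, so its counts are no independent support for theirs. Its lowest treatment ratios were those of Bach2, which encodes a repressor that competes with NRF2, at 4.87, 7.66 and 5.03 CPM and a ratio of 0.657 (0.588 to 0.733), and Maff, a small MAF partner, at 55.4, 72.5 and 48.4 CPM and a ratio of 0.668 (0.645 to 0.693). Its highest were those of Keap1 and Rbx1, a part of the same ubiquitin ligase at 1.19 (1.17 to 1.21). The other genes lower with treatment were Mafg, Mafk, Bach1 and Sqstm1, and these were higher with age too. Maff and Bach2, a partner and a competitor of NRF2, were both highest in old PBS. These genes were named by their values, so nothing is read from them about partners or competitors as groups.

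Of 28 NRF2 target enzymes tested in macrophages, members among them, 6 were higher and 3 lower with age (median log2 ratio -0.019), and 2 were higher and 5 lower with treatment (0.043). Both medians were within 0.1 of those of all genes, and the shares over all genes are those given for the regulators, as for each macrophage list that follows. The lowest treatment ratios were those of Slc7a11 and Srxn1. The highest were those of Akr1b8, an aldo-keto reductase, at 22.7, 15.6 and 27.3 CPM and a ratio of 1.75 (1.65 to 1.87), and Cbr3, a carbonyl reductase, at 12.8, 9.55 and 13.2 CPM and a ratio of 1.38 (1.27 to 1.498). Both were lowest in old PBS, where Slc7a11 was highest.

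In the glutathione list (17 tested) 3 genes were higher and 3 lower with age, and 2 higher and 4 lower with treatment. Its highest treatment ratios were Gpx7 at 1.598 (1.34 to 1.91) and Glrx, glutaredoxin, at 1.33 (1.28 to 1.38), and its lowest Slc7a11 and Gclc. Of 13 thioredoxin genes 3 were higher and 1 lower with age, and 2 higher and 3 lower with treatment. Txnip, an inhibitor of thioredoxin, had 115, 49.3 and 81.4 CPM and a treatment ratio of 1.65 (1.59 to 1.71), and Prdx4, a peroxiredoxin, had 1.27 (1.24 to 1.30). In the class as a whole old PBS was thus high in Txnrd1 and Srxn1 and low in Txnip. Txnip was a leading gene of the sub-cluster led by Hes1, which held 19.1%, 5.48% and 10.4% of macrophages. Its ratio at held shares was not computed.

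Of 16 ATF4 targets 2 were higher and 1 lower with age, and 4 higher and 3 lower with treatment. Atf4 itself stood at 189, 249.99 and 196 CPM, with a treatment ratio of 0.785 (0.771 to 0.7999). The amino acid synthesis genes Asns at 1.62 (1.251 to 2.10) and Phgdh at 1.42 (1.16 to 1.75) had the highest treatment ratios, at levels of 0.844, 0.949 and 1.53 CPM and 1.56, 1.55 and 2.20 CPM. Of 13 ferroptosis regulators 3 were higher and 2 lower with age, and 2 higher and 2 lower with treatment, with Slc40a1, the iron exporter, at 1.61 (1.46 to 1.78), Alox5 at 1.5002 (1.34 to 1.68) and Ptgs2 at 0.685 (0.662 to 0.709). Of 10 superoxide sources and dismutases 1 was lower with age and none was higher or lower with treatment, where ratios ran from 0.834 for Cybb and 0.860 for Sod1 to 1.12 for Rac2 and 1.17 for Ncf1.

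Of 15 genes of dissociation stress, which respond to the handling of tissue, 1 was higher and 5 lower with age, and 6 were higher and 1 lower with treatment. Hspa1a, a heat shock protein, had 1384, 668 and 1359 CPM in young PBS, old PBS and old rMETRNL, and Hspa1b 776, 410.3 and 705 CPM. Fosb at 0.683 (0.670 to 0.697) and Dusp1 at 0.830 (0.820 to 0.840) had the lowest treatment ratios. The heat shock genes were lowest in old PBS, where Slc7a11 was highest, and their part in the members' ratios was not tested.

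**Figure D5:**
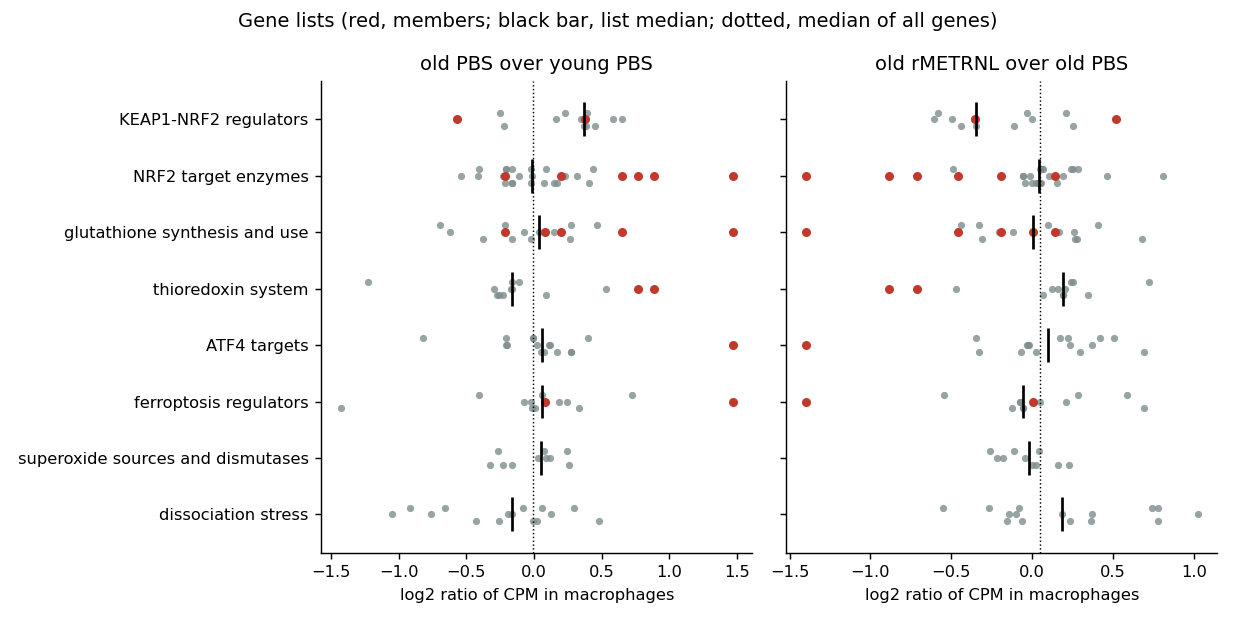
Log2 ratio of CPM in macrophages for the genes of the lists with at least 200 UMIs, for the age contrast and the treatment contrast, with the members in red and the other genes in grey. The KEAP1-NRF2 regulators have medians of 0.37 and -0.35, while the NRF2 target enzymes have medians of -0.019 and 0.043.

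In FAPs, of 31 NRF2 target enzymes 9 were higher and none lower with age, and 6 were higher and 5 lower with treatment. Over all genes in FAPs the shares were 13.6% higher and 16.3% lower for age, and 11.3% higher and 9.85% lower for treatment, and each count in this paragraph is to be set beside them. Of 13 KEAP1-NRF2 regulators 4 were higher and 2 lower with age, and 2 were higher and 2 lower with treatment. Of 18 glutathione genes 2 were higher and 2 lower in each contrast, and of 13 thioredoxin genes 3 were higher and 3 lower with age, and 3 higher and 2 lower with treatment. Of 17 ATF4 targets 5 were higher and 5 lower with age, and 8 higher and none lower with treatment. Of 12 ferroptosis regulators 4 were higher and none lower with age, and none higher and 1 lower with treatment. Of 11 superoxide genes 1 was higher with age and 1 lower with treatment, and of 15 dissociation stress genes 2 were lower with age, and 4 higher and 1 lower with treatment.

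The genes whose level was most like that of Slc7a11 were found by Pearson's r of log2(CPM + 1). Over the 11 macrophage sub-clusters in the 3 libraries (33 points, which share libraries and depth) they were Rnf149 (0.95), Cyth1 (0.95), Trp53inp2 (0.94), Plaur (0.94) and Slc3a2 (0.93). Slc3a2 encodes the heavy chain that pairs with xCT at the membrane, and had 396, 478 and 381 CPM in macrophages, with ratios of 1.21 (1.19 to 1.22) and 0.796 (0.786 to 0.807). Rnf149 had ratios of 1.45 (1.41 to 1.498) and 0.615 (0.596 to 0.633), and Cyth1, Trp53inp2 and Plaur had age ratios of 1.28 to 1.37 and treatment ratios of 0.725 to 0.774. Among the members r was 0.91 for Txnrd1, 0.89 for Nfe2l2, 0.72 for Srxn1, 0.59 for Gclc, 0.48 for Gsr, -0.12 for Gclm, -0.23 for Gpx4, -0.33 for Nqo1 and -0.81 for Keap1. Over 7 cell classes (21 points) the most alike were Stx7 (0.96), Cd14 (0.96), Cxcl16 (0.95), P2ry6 (0.95) and Fam174a (0.94). The members ranked differently over classes, with 0.92 for Nfe2l2, 0.64 for Txnrd1, 0.22 for Keap1, 0.066 for Srxn1, -0.042 for Gclm, -0.065 for Gclc, -0.16 for Gpx4, -0.18 for Nqo1 and -0.58 for Gsr. Of the genes most alike over classes, Cd14, a receptor for bacterial lipopolysaccharide, had macrophage ratios of 1.41 (1.40 to 1.43) and 0.569 (0.563 to 0.575), and Cxcl16, a chemokine, of 1.06 (1.05 to 1.07) and 0.766 (0.756 to 0.776). P2ry6, a nucleotide receptor, lay on the other side of 1 in both contrasts, at 0.771 (0.750 to 0.791) and 1.08 (1.05 to 1.11). Stx7 had 1.07 (1.05 to 1.10) and 0.981 (0.958 to 1.004), and Fam174a 0.969 (0.940 to 0.999) and 0.935 (0.907 to 0.963).

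Markers of other cell types within macrophages were not equal between libraries. Some of these markers also set macrophage sub-clusters apart. Vcam1, of the muscle stem cell list, and Il7r, of the T and NK list, were leading genes of those led by Dnase1l3 and F10. For these lists, RNA of other cells and the mix of macrophage sub-clusters cannot be told apart. Highest in old PBS, like Slc7a11, were the myocyte markers, the 12 T and NK markers (137.5, 230.2 and 170.3 CPM), the 12 dendritic markers (2259, 2636 and 1832 CPM) and the 10 muscle stem cell and myoblast markers (117.9, 139.3 and 98.48 CPM), and by a smaller margin the 10 endothelial markers (29.8, 31.6 and 30.95 CPM) and the 9 Schwann markers (23.8, 24.5 and 22.2 CPM). The 12 markers of the macrophages themselves were lowest in old PBS, at 27550, 24837 and 26010 CPM. Among those lowest in old PBS were the 7 erythroid markers (273.2, 48.7 and 102.3 CPM) and the 12 FAP markers (684.6, 452.9 and 562.3 CPM). The 10 neutrophil markers summed to 76.8, 65.1 and 55.2 CPM. Every marker of these lists but 1 Schwann marker was detected in macrophages, and their part in the members' ratios was not tested. In FAPs the 12 myocyte markers summed to 30.1, 95.9 and 51.0 CPM, the 10 endothelial markers to 18.4, 30.9 and 23.4 CPM and the 12 macrophage markers to 612.0, 676.4 and 576.0 CPM. These were highest in old PBS, as were the 12 FAP markers themselves (32366, 37737 and 32570 CPM). Lowest in old PBS were the 9 pericyte and smooth muscle markers (367.1, 215.9 and 274.6 CPM), the 9 Schwann markers (60.1, 34.5 and 37.4 CPM) and the 10 neutrophil markers (36.1, 25.9 and 33.3 CPM). The part of these lists in the FAP ratios was not tested. Without the macrophage sub-cluster led by Gm26917 and Hbb-bs the Slc7a11 ratios were 2.59 and 0.396.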

How the data were processed

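Cells of injured tibialis anterior were measured in 3 single-cell libraries, 1 per group and each pooled from 3 samples. The authors deposited raw UMI counts per gene and barcode, made with Cell Ranger. The file headers give version 5.0.0, the submitters' processing notes list 5.0.0 and 3.1.0, and the methods of the paper name another version. The annotation release is not given in the sources used here. Barcodes with at least 500 genes and at most 10% mitochondrial UMIs were kept. The automatic Scrublet threshold called 0 doublets in every library, so the top scores, 0.8% per 1000 barcodes, were removed (1086, 1040 and 1320), leaving 31801 of 38748 barcodes. Cells were clustered with Scanpy 1.11.5 (2000 variable genes, 30 components, 20 neighbours, resolution 0.8) into 22 clusters and named "-like" from marker lists. The naming rule was revised after the cluster tables had been seen. A neutrophil-like sub-cluster was removed from macrophages (1.72% of cells) and a low-UMI sub-cluster with no leading FAP marker from FAPs (2.44%). Sub-clusters were scored for this against all kept cells, and a macrophage sub-cluster led by Gm26917, with stromal and erythroid genes among its leading genes against other macrophages, was kept.

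Counts were summed per class and library. Levels have exact Poisson intervals, shares exact binomial intervals and ratios exact conditional intervals, with SciPy 1.17.1. The interval code was tested on simulated data. The members and lists were chosen with earlier results of these data known. Named genes were the members, the 5 most like Slc7a11 over sub-clusters and over classes, and the 2 highest and 2 lowest treatment ratios of each list. Mafg, Mafk, Bach1 and Sqstm1 were named after their values were seen. Alternatives covered cell filters, doublets, resolution, gating of single cells, thinning, the fold and the UMI minimum.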

Additional observations from a re-analysis of the deposited data

Results flagged for a closer look

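The treatment ratio of Gsr was above 1 in FAPs and below 1 in dendritic cells. It was 1.35 (1.23 to 1.47) in FAPs and 0.733 (0.550 to 0.979) in dendritic cells, and the difference between these ratios was not tested.

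Slc7a11 was also present in cells outside the classes compared. A sub-cluster led by S100a9 and S100a8, genes of neutrophils, had been removed from the macrophage class and held 92, 53 and 188 cells of the young PBS, old PBS and old rMETRNL libraries. Its old PBS cells had Slc7a11 at 215.6 CPM (169.0 to 271.0), against 75.2 CPM (56.0 to 98.8) for young PBS and 78.8 CPM (64.2 to 95.8) after rMETRNL, from 73, 51 and 101 UMIs. Each level was above the limit that a count of 0 allows, and old PBS was the highest library here too.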

How the results depend on the processing

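No paired analysis was possible because each group is 1 library, and no replicate could be left out. The alternatives were run on the ratios in macrophages and FAPs, and not on those in the other classes. Under them, no member ratio in macrophages or FAPs past 0.8 or its inverse changed to the other side of 1. Some ratios nearer to 1 did, in Gclm, Gpx4, Gsr, Nqo1 and Slc7a11. The Slc7a11 treatment ratio in FAPs, 0.854, was 0.615 with the mean of per-cell CPM, 0.662 with doublet calls kept and 1.03 with cells gated one by one, and the Nqo1 age ratio in FAPs, 0.890, was 1.26 with doublet calls kept and 1.03 with gated cells. The FAP count lower with treatment, 3, was 4 with the mean of per-cell CPM and with doublet calls kept. The Slc7a11 age ratio of 2.77 became 2.92 with cells gated one by one. Under alternatives chosen after seeing the data, the ratios were 2.59 and 0.396 without the sub-cluster led by Gm26917, and 2.95 and 0.344 without the one led by F10, and the cause was not tested. At 1.5-fold, which by its construction counts fewer genes, the macrophage counts were 0 lower for age, 0 higher and 3 lower for treatment, and the FAP counts 2 higher and 0 lower for age, 0 higher and 1 lower for treatment. The count lower with age in macrophages was 2 with at least 50 UMIs, with at least 1 UMI in each library, with doublet calls kept and with cells gated one by one. With doublet calls kept, 1 member was higher with treatment in FAPs. Over all alternatives the count higher with age ran from 4 to 5 in macrophages and from 2 to 6 in FAPs. The shares of macrophages with Slc7a11 were 15.1%, 32.2% and 15.6% without thinning, 8.29%, 20.6% and 8.45% thinned to 5000 UMIs, and 0.903%, 2.89% and 0.9499% when 2 UMIs were required. Old PBS was highest in each. Nqo1 was left out of the macrophage counts because it had 193 UMIs there, under the minimum of 200.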
